A study of Mus musculus with 24 samples.

Results

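The transcripts described here encode subunits of the transcription factor NF-kB and proteins that regulate it, among them its feedback inhibitors. They were measured in splenic dendritic cells (DCs) of 14-day-old mouse pups. Members were the probe sets whose only gene symbol in the platform annotation was Nfkbia, Nfkbiz, Nfkbie, Nfkb1, Nfkb2, Rel, Relb, Tnfaip3, Bcl3 or Birc3. The annotation gave 15 probe sets for 9 of these 10 genes, out of 22626 probe sets for 12393 genes in all, and gave none for Nfkb1, which was not analysed here. The 24 arrays came from BALB/c pups in 6 groups. Asthma-at-risk pups were born to mothers sensitized with ovalbumin (OVA) and alum and later exposed to OVA aerosols, and normal pups were born to control mothers. Stimulated pups had been injected once with OVA (5 µg) in alum (1 mg), on day 3 of life by the sample labels and on day 4 by the study's methods, whereas naïve pups had received none. Set 1 (arrays AF76 to AF91) held 4 stimulated at-risk, 4 stimulated normal, 4 naïve at-risk and 3 naïve normal arrays. Set 2 (arrays AF118 to AF127), which the methods give as NuGEN amplified, held 5 stimulated at-risk and 4 stimulated normal arrays. In all groups the cells were splenocytes retained on beads for CD11c. How many pups each array stands for was not found in the sources, and every p-value here rests on the variation from array to array.

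In resting cells NF-kB dimers are held in the cytoplasm by inhibitory IkB proteins. Receptors for danger signals, cytokines and costimulatory ligands activate the IkB kinase (IKK), the inhibitor is degraded and the dimers enter the nucleus. Among the first genes they transcribe are those of their own inhibitors and subunits, so that the members are at once parts of the pathway and its readout. In DCs this pathway accompanies maturation, with Rel and Relb as the subunits best known from these cells. Of the other members, Nfkb2 encodes the precursor that pairs with Relb. Nfkbia and Nfkbie encode cytoplasmic inhibitors, whereas Nfkbiz and Bcl3 encode atypical IkB proteins that work in the nucleus on chromatin-bound dimers. Tnfaip3 encodes a ubiquitin-editing enzyme that acts above IKK, and Birc3 a ubiquitin ligase of tumor necrosis factor receptor complexes.

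Most promoter windows of the members hold letters that match the kB consensus, the motif that NF-kB dimers recognise. The members were chosen as parts and feedback genes of this pathway, so the matches are a description and not independent support. RefSeq promoter windows (GRCm38.p6, 300 bases that begin 250 bases before the start) were matched by symbol for 7 genes in 10 windows. Nfkbiz and Relb had no entry. The kB consensus was searched on both strands and matched in 8 of the 10 windows and 6 of the 7 genes, against 4.51% of all 32851 windows of that length. The windows are not all separate, because Nfkb2 has several and some of these overlap and share a match. Birc3 had no match in its window, nor had Tnfaip3 in its window at chr10:19011914-19012213, and the match of Bcl3 lay after the start. Each stretch below runs 5′ to 3′ on the gene's strand and ends at or before the start, with the matched bases in capitals.
Nfkbia, chr12:55492648-55492701, minus strand: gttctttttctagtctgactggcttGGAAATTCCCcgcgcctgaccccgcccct
Rel, chr11:23771026-23771086, minus strand: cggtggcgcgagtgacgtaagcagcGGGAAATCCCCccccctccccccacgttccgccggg
Tnfaip3, chr10:19015411-19015560, minus strand: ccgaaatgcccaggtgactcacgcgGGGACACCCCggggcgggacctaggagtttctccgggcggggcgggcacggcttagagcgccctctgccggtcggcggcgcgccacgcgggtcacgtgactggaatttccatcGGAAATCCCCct
Nfkb2, chr19:46304673-46304736, plus strand: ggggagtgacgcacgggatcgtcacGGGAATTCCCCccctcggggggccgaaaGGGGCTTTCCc
Nfkbie, chr17:45555569-45555628, plus strand: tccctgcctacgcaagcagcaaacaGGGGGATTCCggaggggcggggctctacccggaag
The longer capital runs of Rel and Nfkb2 each hold 2 overlapping matches. The stretch of Nfkb2 holds a further, separate match, and that of Tnfaip3 has 2 separate matches. Other windows of Nfkb2, not printed here, also hold matches before the start. A match is a description of the letters and not evidence of binding in these cells.

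Signals are given as log2 of the deposited intensities, and a level is compared only within a probe set. The median of all probe sets was 8.09 to 8.22 over the 24 arrays and the lower quartile 5.0 to 5.09. The representative probe set of a gene was the one with the highest mean. Nfkbia (probe set 1420089_at) stood at the 98.8th percentile of all probe sets by its mean and Birc3 (1421392_a_at) at the 95.3rd, whereas Tnfaip3 (1450829_at) stood at the 39.4th. These percentiles say how bright a probe set was on the array and do not rank the genes by transcript level. Defining DC markers were bright throughout, with Itgax, which encodes CD11c, at 12.63 to 13.1 and the MHC class II gene H2-Ab1 at 13.59 to 13.88. The naïve normal array AF79 stood apart, with an SD of 0.39 for its difference from the rest of its group over all probe sets, against 0.14 to 0.33 for the other 23 arrays. Groups were compared with limma, and a probe set was called where its p, adjusted over all probe sets by Benjamini-Hochberg, did not exceed 0.05 and the higher mean exceeded the lower by at least 25%.

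**Figure D1:**
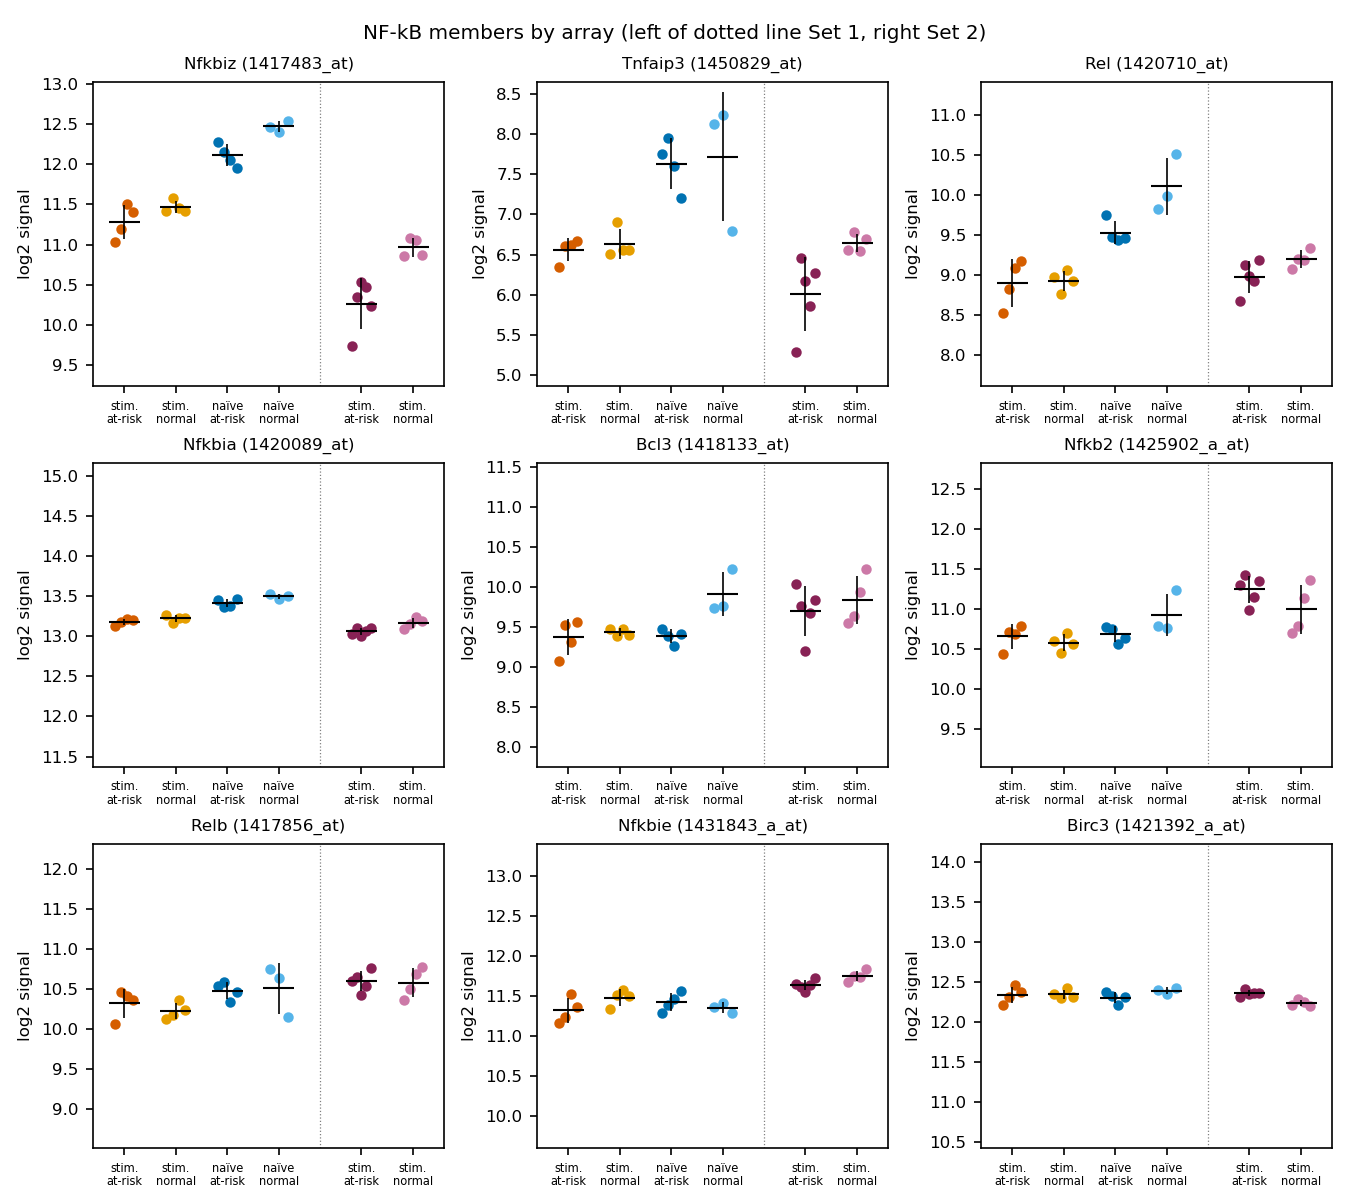
Log2 signal of the 9 measured members by array, 1 panel per gene with its representative probe set, 1 point per array, bars for the mean ± SD of each group, and all panels spanning the same range of log2 units. Nfkbiz, Tnfaip3 and Rel have lower means in the stimulated than in the naïve groups of Set 1, while Birc3 stays between 12.2 and 12.46 on every array. By the methods the sets were preprocessed separately, and levels left and right of the dotted line are not compared.

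The allergen comparison asks how DCs of injected pups differed from those of naïve pups, and it was possible in Set 1 alone. In stimulated DCs of both maternal backgrounds, Nfkbiz, Tnfaip3 and Rel were lower than in naïve DCs of the same background. In at-risk pups 3 of 9 members were called lower, against 3.46% of all probe sets, and in normal pups 4 of 9, against 5.76%. No member was called higher by its representative probe set, where 4.42% and 5.73% of all probe sets were. In either direction 7.88% of all probe sets were called in at-risk and 11.5% in normal pups. The median log2 fold change of the members was -0.16 in at-risk and -0.34 in normal pups, with -0.01 and 0 over all probe sets. The sample is a bulk of cells, in which fewer cells of a type and less RNA per cell cannot be told apart.

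Nfkbiz, the nuclear IkB protein needed for secondary response genes, showed the smallest adjusted p of the members. Its log2 signal was 11.03, 11.19, 11.5 and 11.4 in stimulated at-risk DCs, against 12.28, 12.16, 12.06 and 11.96 in naïve at-risk DCs. In normal pups it was 11.42, 11.58, 11.46 and 11.42 in stimulated DCs, against 12.47, 12.41 and 12.54 in naïve DCs. The stimulated and naïve arrays did not overlap in either background, and every stimulated array lay below every naïve array, as in 8.84% of all probe sets in at-risk and 10.3% in normal pups. The log2 fold change was -0.83 in at-risk pups (adjusted p = 4.2e-05 from limma, SE 0.10, 4 against 4 arrays) and -1.0 in normal pups (SE 0.10, adjusted p = 1.52e-05, 4 against 3 arrays). A second probe set, 1448728_a_at, gave larger falls of -1.32 (SE 0.11, adjusted p = 1.4e-06) and -1.8 (SE 0.11, adjusted p = 2.25e-07). Both probe sets kept these groups apart, so the direction of the fall did not depend on the choice of probe set.

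Rel encodes the c-Rel subunit. Its log2 signal was 8.52, 8.82, 9.09 and 9.18 in stimulated at-risk DCs, against 9.75, 9.47, 9.44 and 9.46 in naïve at-risk DCs. In normal pups it was 8.97, 8.76, 9.06 and 8.92 in stimulated DCs, against 9.82, 9.99 and 10.51 in naïve DCs. The groups did not overlap in either background. Rel changed by -0.62 (log2) in at-risk pups (SE 0.15, adjusted p = 0.0166 from limma) and by -1.17 in normal pups (SE 0.17, adjusted p = 0.000227). The difference between these falls, tested as the interaction of maternal status and allergen, was 0.55 (95% interval 0.07 to 1.03, adjusted p = 0.521) and was not called. No member was called for this difference, and of all probe sets 0.0486%, all higher. In at-risk pups the call was lost without AF80, AF88 or AF89 (adjusted p = 0.0581, 0.0566 and 0.0518).

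Tnfaip3, the ubiquitin-editing brake of the pathway, had log2 signals of 6.35, 6.61, 6.62 and 6.67 in stimulated at-risk DCs, against 7.76, 7.96, 7.61 and 7.21 in naïve at-risk DCs. In normal pups the values were 6.51, 6.91, 6.56 and 6.56 in stimulated DCs, against 8.13, 8.24 and 6.8 in naïve DCs. The groups did not overlap in at-risk pups, whereas in normal pups the naïve array AF79, at 6.8, lay within the stimulated range. The log2 fold changes were -1.07 in at-risk (SE 0.25, adjusted p = 0.0111 from limma) and -1.09 in normal pups (SE 0.27, adjusted p = 0.0131). Without AF79 the change in normal pups was -1.55 (adjusted p = 5.07e-05), and without AF76 or AF77 its call was lost (-0.89 and -0.83, adjusted p = 0.0596 and 0.0576), as it was with only the compared groups in the fit (adjusted p = 0.0776).

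Nfkbia, the classical feedback inhibitor, moved little but evenly. It had 13.13, 13.18, 13.22 and 13.2 in stimulated at-risk DCs against 13.45, 13.36, 13.38 and 13.46 in naïve at-risk DCs, and 13.27, 13.17, 13.23 and 13.23 in stimulated normal DCs against 13.53, 13.47 and 13.5 in naïve normal DCs. The arrays did not overlap in either background. Its log2 fold changes of -0.23 (SE 0.05, adjusted p = 0.00688 from limma) and -0.28 (SE 0.05, adjusted p = 0.00276) passed the adjusted p but not the threshold of 25%. Of its other probe sets, 1449731_s_at had -0.26 and -0.29 and also missed the fold. Probe set 1420088_at was called in normal pups (-0.41, adjusted p = 0.00408) and just missed the fold in at-risk pups (-0.32, adjusted p = 0.0153). Probe set 1448306_at was called in neither, with -0.34 in normal pups (adjusted p = 0.238) and -0.51 in at-risk pups (adjusted p = 0.0727). The last is the probe set for which AF79 lay far below its group, at 11.9 against 12.8 and 12.92.

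Bcl3, the other nuclear IkB protein, had 9.48, 9.39, 9.48 and 9.4 in stimulated normal DCs against 9.74, 9.76 and 10.23 in naïve normal DCs. These arrays did not overlap, and Bcl3 fell, with a log2 change of -0.47 (SE 0.12, adjusted p = 0.0191 from limma). In at-risk pups its change was -0.02 (95% interval -0.26 to 0.23, adjusted p = 0.968), with 9.08 to 9.57 in stimulated against 9.27 to 9.48 in naïve DCs. The difference between the backgrounds was 0.46 (95% interval 0.1 to 0.82, adjusted p = 0.476) and was not called. The call in normal pups was lost without AF79 (-0.31, adjusted p = 0.0767), with only the compared groups (adjusted p = 0.0546) and with all 24 arrays in the fit (adjusted p = 0.0686).

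The remaining members were not called by their representative probe sets. In at-risk and normal pups Nfkb2 had log2 fold changes of -0.03 and -0.34, Relb of -0.16 and -0.29, Nfkbie of -0.10 and 0.13 and Birc3 of 0.03 and -0.04. For Birc3 the 95% intervals, -0.1 to 0.17 and -0.19 to 0.1, left out a change of 25%, and its values lay between 12.21 and 12.46 on all 15 arrays of Set 1. The other probe set of Birc3, 1425223_at, fell in normal pups (-0.53, adjusted p = 0.00601) and had -0.33 in at-risk pups (adjusted p = 0.0683), opposite in sign to the 0.03 of the representative probe set. In normal pups a fall was also called for the other probe set of Nfkb2, 1429128_x_at (-0.33, adjusted p = 0.0308). Relb was called in normal pups without AF79 (-0.47, adjusted p = 0.00894).

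**Figure D2:**
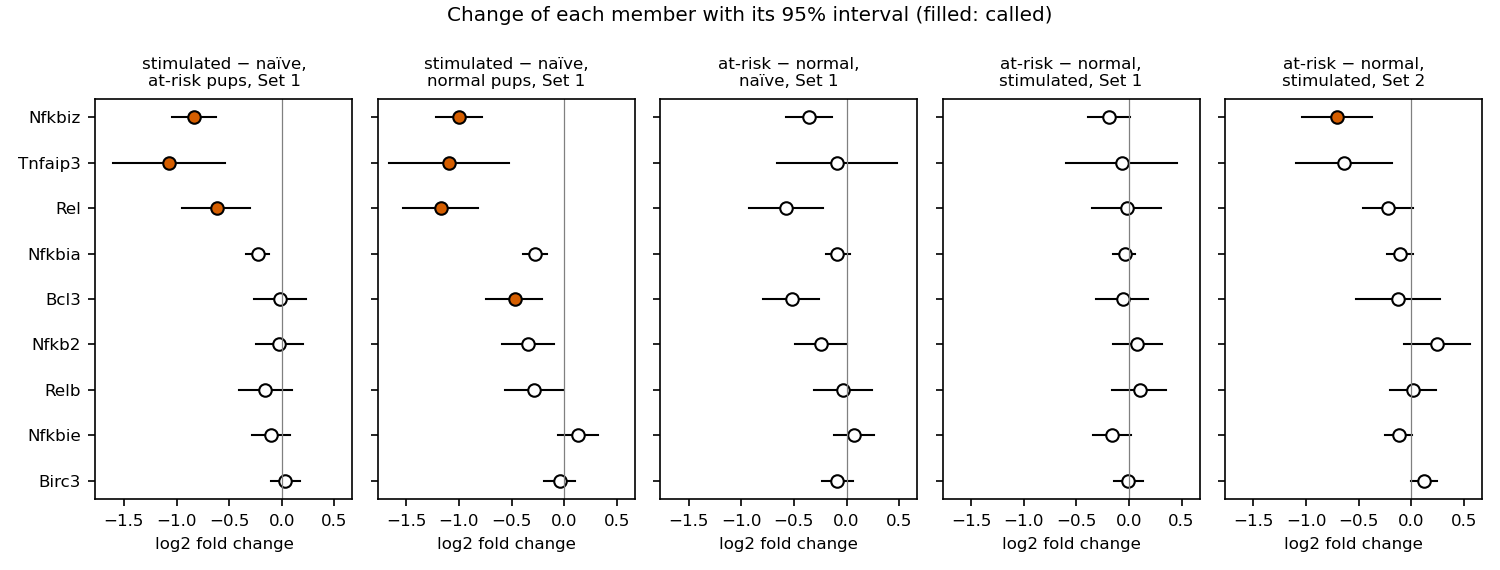
Log2 fold change of the 9 members (points) with 95% intervals (lines) in 5 comparisons, filled where the change was called. Nfkbiz, Tnfaip3 and Rel are called lower in both allergen comparisons, and Nfkbiz in Set 2.

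**Figure D3:**
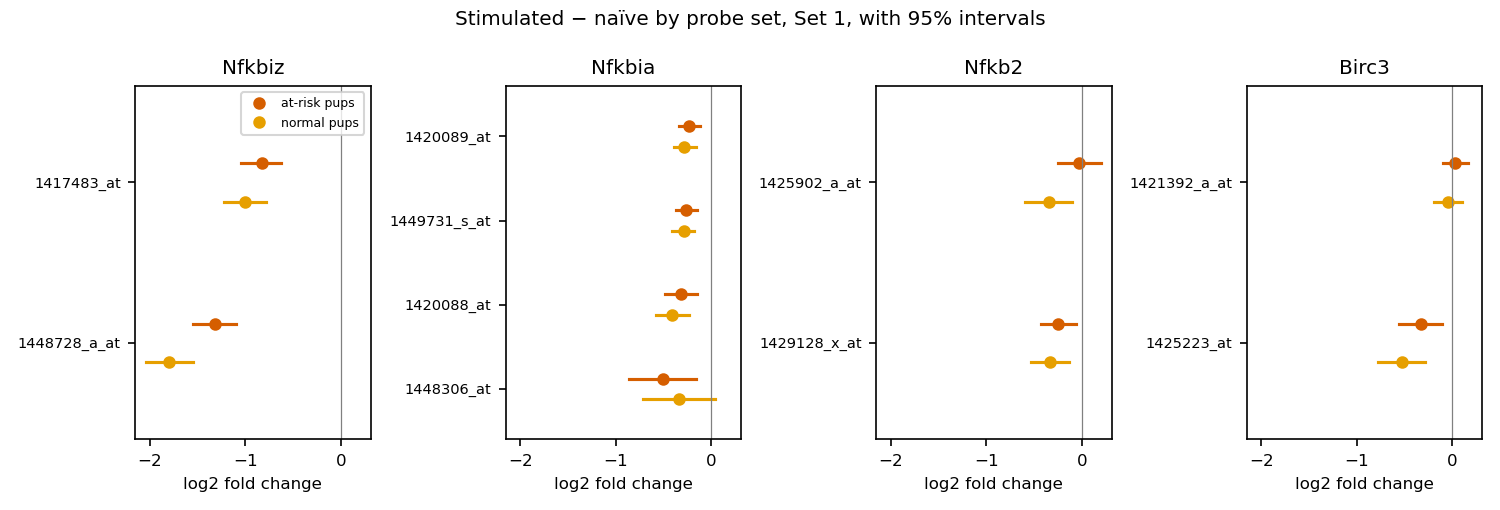
Log2 fold change of stimulated over naïve DCs of Set 1, with 95% intervals, for each probe set of the 4 members with several probe sets, at-risk pups above normal pups. Both probe sets of Nfkbiz lie below 0, and the pairs of Birc3 and Nfkb2 differ in size.

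Other transcripts moved with the same comparison. All 9 platelet markers measured were called higher in both backgrounds, with a mean log2 signal per array of 9.71 to 10.68 in stimulated at-risk and 9.61 to 10.08 in stimulated normal DCs, against 6.07 to 6.42 in naïve at-risk and 6.09 to 6.26 in naïve normal DCs. Of 12 T cell markers, 10 were called lower in at-risk and 11 in normal pups, although Cd4 and Cd8a in this list are also carried by subsets of splenic DCs. The T cell mean was 8.6 to 8.69 in stimulated at-risk and 8.43 to 9.44 in stimulated normal DCs, against 9.54 to 9.67 in naïve at-risk and 9.88 to 10.04 in naïve normal DCs. Of 24 immediate early genes, whose transcription follows a stimulus, cell isolation included, almost at once, 15 were called lower in at-risk and 18 in normal pups and none higher. Their mean was 10.45 to 10.65 in stimulated at-risk and 10.57 to 10.74 in stimulated normal DCs, against 11.09 to 11.25 in naïve at-risk and 11.29 to 11.45 in naïve normal DCs. No DC marker of 11 was called in at-risk pups, and in normal pups 1 was called lower and 2 higher. Of 7 erythroid markers 6 were called higher in each background, and of 8 macrophage markers 3 were called lower in at-risk and 4 in normal pups. Of 6 natural killer cell markers 4 were called lower in at-risk and 3 in normal pups (medians -0.69 and -0.95). Of 8 endothelium markers 5 were called higher and 1 lower in at-risk pups, and 1 each way in normal pups. The part of these transcripts in the falls of Nfkbiz, Rel and Tnfaip3 was not tested.

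**Figure D4:**
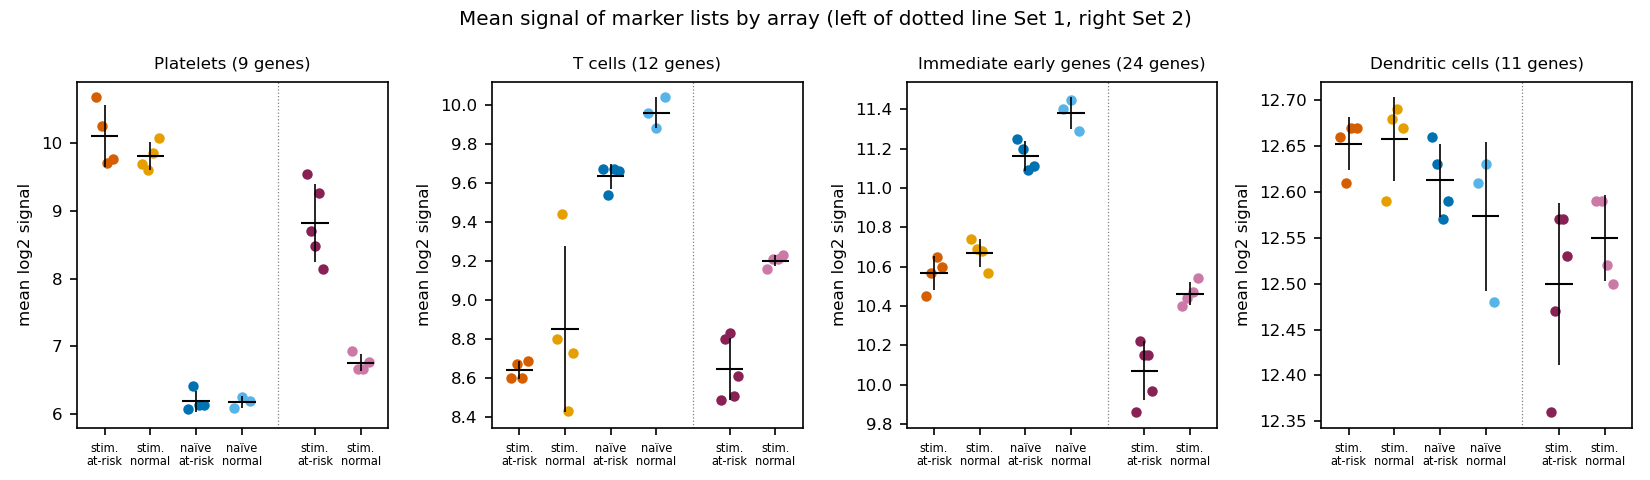
Mean log2 signal of 4 marker lists by array, 1 point per array, with bars for the mean ± SD of each group. Platelet markers are higher and T cell markers and immediate early genes lower in the stimulated groups of Set 1 than in its naïve groups, and DC markers span 12.36 to 12.69 over all arrays.

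The naïve comparison asks whether maternal asthma alone altered the members before any allergen. No member was called in limma, where 0.34% of all probe sets were, 0.239% lower and 0.102% higher. At an unadjusted p under 0.05 from limma, 3 members (Bcl3, Rel and Nfkbiz) were lower in at-risk DCs. So were 1636 of all 22626 probe sets, and 3578 passed this cut in either direction. Bcl3 had 9.48, 9.39, 9.27 and 9.42 in naïve at-risk DCs against 9.74, 9.76 and 10.23 in naïve normal DCs, which is -0.52 as a log2 change (adjusted p = 0.0815, SE 0.12). Rel had -0.58 (SE 0.17, adjusted p = 0.149) and Nfkbiz -0.36 (SE 0.10, adjusted p = 0.149), with the values given above. Bcl3, Rel, Nfkbiz and Nfkbia had every at-risk array below every normal array, as had 5.39% of all probe sets. For Nfkbia this held by the representative probe set alone. Without AF79 the changes of Bcl3, Rel and Nfkbiz were -0.36, -0.38 and -0.32 (adjusted p = 0.247, 0.426 and 0.352). For Tnfaip3 the change was -0.09 (95% interval -0.66 to 0.48) and -0.55 without AF79. The other members lay between -0.24 for Nfkb2 and 0.07 for Nfkbie, and Nfkbia, at -0.09, had 0.12 by its probe set 1448306_at. In this comparison 11 of 12 T cell markers were negative with a median of -0.35 and none called, and the T cell mean of 9.54 to 9.67 in naïve at-risk DCs did not overlap that of 9.88 to 10.04 in naïve normal DCs. Of 24 immediate early genes 20 were negative and 2 called lower, with means of 11.09 to 11.25 in naïve at-risk and 11.29 to 11.45 in naïve normal DCs, which did not overlap either. The part of both lists in the values was not tested.

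The stimulated maternal comparison asks how at-risk and normal DCs differed after the injection, over 17 arrays of both sets with set as a term. Nfkbiz was the only member of 9 called. It was lower in at-risk DCs, with a log2 change of -0.46 (adjusted p = 0.0404 from limma, SE 0.11, 9 against 8 arrays). Of all probe sets 1.73% were called, 0.415% lower and 1.31% higher. In Set 2 its log2 signal was 9.73, 10.34, 10.53, 10.47 and 10.23 in stimulated at-risk DCs, against 10.86, 11.08, 11.06 and 10.87 in stimulated normal DCs. In Set 1 it was 11.03, 11.19, 11.5 and 11.4, against 11.42, 11.58, 11.46 and 11.42. The groups were apart in Set 2 and overlapped in Set 1, where AF90 at 11.5 exceeded 3 of the 4 normal arrays. Within Set 2 the log2 fold change was -0.71 (SE 0.15, adjusted p = 0.0259), with 4.62% of all probe sets called, 2.04% lower and 2.58% higher, and within Set 1 it was -0.19 (SE 0.10, adjusted p = 0.731), where 0.0707% of all probe sets were called, all of them higher, and 851 had a lower level at an unadjusted p under 0.05. The difference between the sets was -0.52 (95% interval -0.93 to -0.11, adjusted p = 0.202) and was not called, as was so for every member, while 1.79% of all probe sets were, 1.13% lower and 0.659% higher. The second probe set of Nfkbiz had -0.26 over both sets (adjusted p = 0.175), -0.47 in Set 2 (adjusted p = 0.0904) and -0.03 in Set 1.

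The call of Nfkbiz stood close to the threshold. Over both sets it was lost when any 1 of 11 of the 17 arrays was left out (adjusted p from 0.05, rounded, to 0.107), without a term for set (adjusted p = 0.394) and with set as a random block (adjusted p = 0.0842), while the log2 fold change stayed between -0.51 and -0.36 in all alternatives run. Within Set 2 it was lost without AF118, AF119, AF120 or AF127 (adjusted p = 0.0581, 0.0959, 0.0874 and 0.063).

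Tnfaip3 followed Nfkbiz in Set 2, with 5.28, 6.46, 6.17, 5.86 and 6.27 in stimulated at-risk DCs against 6.56, 6.78, 6.55 and 6.7 in stimulated normal DCs. These arrays did not overlap, as was so for 4.47% of all probe sets in that direction, and the log2 fold change of -0.64 was not called (SE 0.21, 95% interval -1.1 to -0.18, adjusted p = 0.114 from limma). In Set 1 it had -0.07 (95% interval -0.6 to 0.46). Birc3 went the other way in Set 2, with all at-risk arrays, at 12.31 to 12.41, above all normal arrays, at 12.2 to 12.29, as was so for 5.67% of all probe sets in that direction, but by only 0.12 (adjusted p = 0.211). Nfkb2 had 0.24 (95% interval -0.07 to 0.56) but -0.07 by its other probe set, and the remaining members lay between -0.22 for Rel and 0.02 for Relb. For Nfkbia, 3 of its 4 probe sets had no overlap between the Set 2 groups, with changes from -0.14 to -0.41 and none called. In Set 1 no member changed by more than 0.19 in size, with Nfkbiz at that value, and Bcl3, Rel, Tnfaip3 and Birc3 lay within 0.07 of 0. The other probe set of Birc3 had 0.17 in Set 1, against -0.01 by the representative one. Probe sets also differed in sign, none called, for Nfkb2 over both sets (0.17 and -0.02), for Nfkb2 and Birc3 in the difference between sets (0.16 and -0.1, 0.13 and -0.13), and for Nfkbia in the difference by allergen (0.05 and -0.17 for 1448306_at).

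Set 2 also differed between its groups in other transcripts. All 9 platelet markers were called higher in stimulated at-risk DCs, with a mean of 8.14 to 9.55 per array, against 6.67 to 6.93 in stimulated normal DCs. Of 12 T cell markers 8 were called lower (8.49 to 8.83 against 9.16 to 9.23 in normal DCs), of 6 natural killer cell markers 4 (8.85 to 9.25 against 9.71 to 9.73), and of 24 immediate early genes 7 (9.86 to 10.22 against 10.4 to 10.54). Stroma markers were called higher for 5 of 7 (7.28 to 7.87 against 6.68 to 6.81 in normal DCs), endothelium markers for 4 of 8 (7.47 to 7.87 against 6.79 to 7.11) and erythroid markers for 2 of 7 (9.18 to 10.31 against 8.56 to 8.71), and macrophage markers were called lower for 2 of 8 (11.46 to 11.9 against 12.06 to 12.15). No DC marker of 11 was called. In Set 1, where 0.0707% of all probe sets were called and none lower, neither Nfkbiz nor a marker of these lists was called. The platelet means, 9.71 to 10.68 in stimulated at-risk and 9.61 to 10.08 in stimulated normal DCs, overlapped there. Every other list named above overlapped too, apart from the erythroid markers. Their means were 9.25 to 9.66 in stimulated at-risk and 8.99 to 9.22 in stimulated normal DCs. Of 8 neutrophil markers 1 was called higher in Set 1, where their means were also apart (11.29 to 11.65 against 10.72 to 11.04). In Set 2, 1 neutrophil marker was called lower and the means overlapped. B cell means were apart in both sets, in Set 1 at 9.41 to 9.61 in stimulated at-risk against 9.34 to 9.37 in stimulated normal DCs. In Set 2 they were 10.58 to 10.75 against 10.16 to 10.26, with 4 of 8 B cell markers called higher. Plasma cell means overlapped in Set 1 and were apart in Set 2 (10.58 to 10.8 against 10.87 to 10.91), with no marker called. The part of these transcripts in the change of Nfkbiz was not tested.

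The rest of the pathway was read from 4 lists chosen by function. The first held 16 measured subunits and inhibitors outside the members. In at-risk pups 1 of them was called higher with allergen and none lower, and in normal pups 2 were called higher and 2 lower. Of all probe sets 4.42% were called higher and 3.46% lower in at-risk pups, and 5.73% and 5.76% in normal pups. Otud7b, a deubiquitinase that restrains the non-canonical pathway, rose in both backgrounds (0.89 in at-risk pups, adjusted p = 2.58e-05 from limma, and 0.83 in normal pups, adjusted p = 9.44e-05) and was higher in at-risk than in normal DCs of Set 2 (0.43, adjusted p = 0.0486). In normal pups Tnip2 also rose (0.50), while Nfkbib, a further cytoplasmic inhibitor, and Tnip1, a partner of the Tnfaip3 protein, fell (-0.52 and -0.47). Rela, the main activating subunit, was not called, with -0.16 in both backgrounds (adjusted p = 0.0929 in at-risk and 0.107 in normal pups). The median of the list was -0.02 in at-risk and 0.04 in normal pups.

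Of 16 genes of IKK and its adaptors, 1 was called in each background. Over all probe sets 7.88% were called in at-risk and 11.5% in normal pups. The gene called was Ikbke in both. This kinase, itself inducible and best known from antiviral signalling, fell, by a log2 change of -0.99 in at-risk pups (SE 0.09, adjusted p = 4.83e-06 from limma) and -1.27 in normal pups (SE 0.10, adjusted p = 1.11e-06). None of the list was called in Set 2, where its median was 0.12.

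Among 23 receptors and ligands that feed the pathway, 3 were called lower and none higher in at-risk pups, and 8 lower and 1 higher in normal pups. The shares called lower over all probe sets were 3.46% in at-risk and 5.76% in normal pups, and those called higher 4.42% and 5.73%. The endosomal RNA receptor Tlr7 had -0.85 in at-risk pups (adjusted p = 5.32e-05 from limma), the cytokine Tnf -0.51 (adjusted p = 0.00448) and Tnfsf11, a ligand of the non-canonical pathway, -0.61 (adjusted p = 0.0273). In normal pups the smallest adjusted p were those of Tnf (-1.1, adjusted p = 1.44e-05), the B cell survival factor Tnfsf13b (-0.55), the RNA receptor Tlr3, which rose (0.35), and the cytokine Il1a (-0.75). In naïve pups Lta was lower in at-risk DCs (-0.69, adjusted p = 0.0415). In Set 2, 4 were called lower and 1 higher in at-risk DCs, against 2.04% and 2.58% of all probe sets. Among them Il1b had -0.43, Tlr7 -0.74, Tlr4 -0.42 and Tnfrsf13c, a receptor of B cells, 0.54. Of 8 B cell markers, 4 were called higher in the same comparison, and their part in the value of Tnfrsf13c was not tested.

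The 32 measured genes commonly listed as NF-kB targets were chosen with earlier results of these arrays known. With allergen, 8 were called lower in at-risk and 17 in normal pups, against 3.46% and 5.76% of all probe sets. None was called higher, where 4.42% and 5.73% of all probe sets were. The chemokines Cxcl1, Cxcl2 and Ccl4 had -2.33, -1.92 and -1.42 in at-risk pups, and -3.22, -1.85 and -2.06 in normal pups. Ptgs2, the inducible cyclooxygenase, had -1.53 and -1.89. The median of the targets was -0.16 in at-risk and -0.37 in normal pups, close to that of the members. In Set 2, 9 targets were called lower in at-risk DCs, against 2.04% of all probe sets. Among them were Cxcl2 (-2.49, adjusted p = 0.000268 from limma) and Ptgs2 (-1.64, adjusted p = 0.00347). In Set 1 no target was called, and no probe set of the array was called lower there. In naïve pups 3 targets were called lower in at-risk DCs, against 0.239% of all probe sets. Ier3, a target, also stands in the list of immediate early genes, and Ccr7 in that of DC markers.

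**Figure D5:**
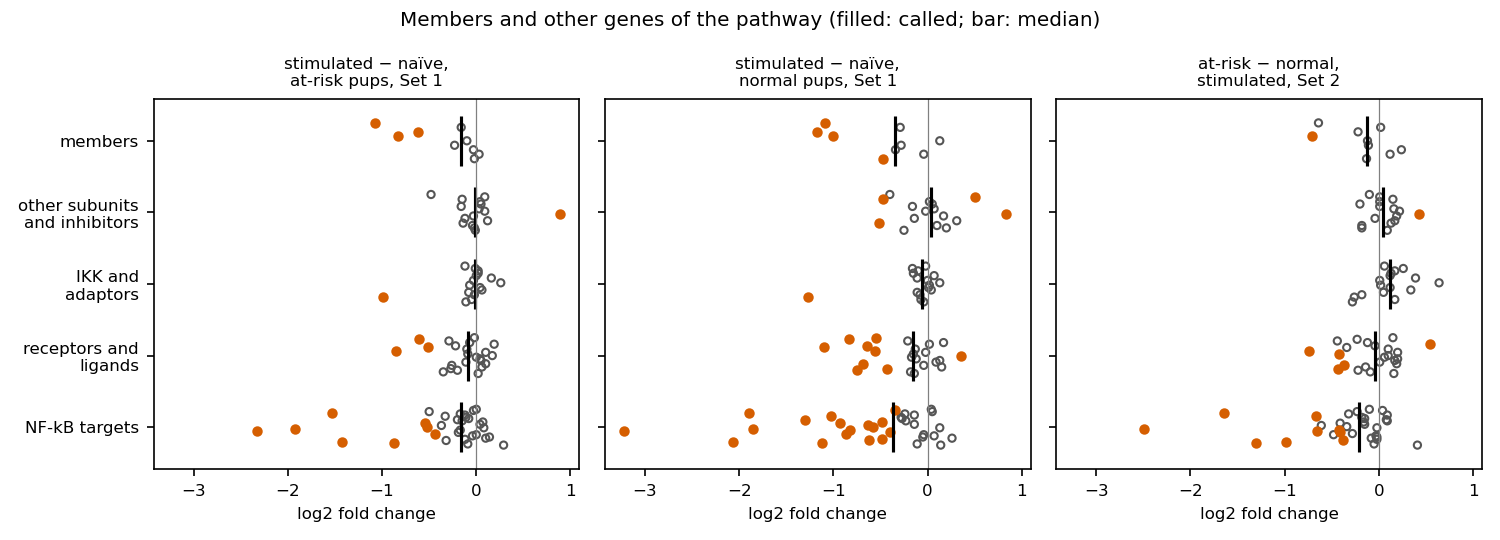
Log2 fold change of the members and of 4 other gene lists of the pathway, 1 point per gene, filled where called, with a bar for the median of the list, in 3 comparisons. In the allergen comparisons the called members and targets lie to the left of 0, while Otud7b, the single gene called in its list in at-risk pups, lies at 0.89.

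The members did not vary alike among themselves. Over the 24 arrays, centred on the mean within each set, the correlation of a member with the mean of the other members was 0.92 for Nfkbia, 0.89 for Rel, 0.82 for Nfkbiz and 0.66 for Tnfaip3. It was 0.59 for Relb, 0.49 for Bcl3, 0.38 for Nfkb2, and 0.13 for both Birc3 and Nfkbie. These values describe arrays that share groups and sets and carry no test. Within groups the SD was smallest for Nfkbia (0.05) and Birc3 (0.06) and largest for Tnfaip3 (0.38). In Set 1 the order of group means was the same for Nfkbiz, Rel, Nfkbia and Tnfaip3, with stimulated at-risk lowest, then stimulated normal, naïve at-risk and naïve normal. For each of these 4 genes the stimulated pair overlapped. The naïve pair overlapped for Tnfaip3 and not for the other 3, and the stimulated normal and naïve at-risk groups were apart for all 4. These orders and overlaps are those of the representative probe sets. By its other probe sets Nfkbia had overlapping naïve groups. Probe set 1448306_at had means of 12.54 in naïve normal and 12.66 in naïve at-risk DCs.

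The genes most like the mean of the members over the 24 arrays, out of 7865 genes considered, were Hcar2 (Pearson r 0.95), Lag3, Stk17b and Cd14 (each 0.93) and Atf3 (0.92). Spearman rho was 0.9, 0.92, 0.93, 0.89 and 0.89 in the same order. Hcar2 encodes a receptor for hydroxylated fatty acids, Lag3 an inhibitory receptor, Stk17b a kinase, Cd14 a co-receptor for lipopolysaccharide and Atf3 a stress-induced transcription factor, which is in the list of immediate early genes.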

How the data were processed

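RNA of bead-selected CD11c+ splenocytes was hybridized to 24 Affymetrix Mouse430A 2.0 arrays. The authors deposited RMA intensity values on a linear scale. By the methods they preprocessed the sets separately and excluded 1 array from each. The methods also name a RefSeq-based definition of probe sets, whereas the deposited rows carry Affymetrix probe set names. Which summarization gave the deposited values was not settled from the sources. No source used here states the RMA version. Here log2 was taken with no pseudocount, and 64 control probe sets were left out. No value column lacked a sample.

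With limma 3.58.1 (R 4.3.3), linear models were run over 22626 probe sets: on the 15 arrays of Set 1, the 9 of Set 2, or the 17 stimulated arrays with set as a term. Calls required a p, adjusted by Benjamini-Hochberg, not above 0.05, and means apart by at least 25%. Tables were handled in Python 3.11.15 with numpy 2.4.6 and pandas 2.3.3, and plots with matplotlib 3.10.9. Scripts were tested on simulated data.

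All members were named, each by its probe set of highest mean, others where the call or sign differed. Of each pathway list up to 4 called genes of smallest adjusted p, and of other genes the 5 most like the members, were named. Members and lists were chosen with earlier results of these data known. Levels of the 2 sets were never tested against each other without a set term except in 1 alternative. Alternatives were repeated quantile normalization, a dim filter at the 40th percentile, trended and robust variances, array weights, no fold threshold, single or averaged probe sets, other arrays in the fit, other treatments of set, and each array left out.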

Additional observations from a re-analysis of the deposited data

Results flagged for a closer look

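In 45 combinations of a member and a group of 4 or 5 arrays, 2 held an array far from the others by Dixon's criterion, which chance meets in about 1 of 20 such groups. Rel had 9.75 on the naïve at-risk array AF80, with 9.44 to 9.47 on the other 3, a gap of 0.9 of the range. Without AF80 the fall of Rel with allergen in at-risk pups was -0.55 (adjusted p = 0.0581 from limma). Tnfaip3 had 6.91 on the stimulated normal array AF85 of Set 1, with 6.51 to 6.56 on the other 3, a gap of 0.86 of the range.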

How the results depend on the processing

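Nfkbiz was called lower in both allergen comparisons under every alternative run. The number of members called in the stimulated maternal comparison was 1, and 0 without a term for set and with set as a random block. In Set 2 it was 1, and 2 with array weights, which added Tnfaip3 (-0.58, adjusted p = 0.0253). The difference between sets had 0 members called, and 1 with array weights (Nfkbiz, -0.53, adjusted p = 0.0294). In normal pups 4 members were called with allergen, with 2 to 6 over the alternatives that kept all arrays of the comparison, 2 being with only the compared groups in the fit and 6 with probe sets averaged. In at-risk pups it was 3, with 2 to 4. Nfkbia gained a call in both backgrounds without a fold threshold and with probe sets averaged (-0.33 in each, adjusted p = 0.00297 in at-risk and 0.00426 in normal pups), and Relb in normal pups with array weights (-0.42, adjusted p = 0.00853). With each array left out in turn the counts were 0 to 1 in the stimulated comparison, 0 to 1 in Set 2, 4 to 5 with allergen in normal and 2 to 3 in at-risk pups. Nfkb2 in normal pups was called under 6 alternatives, the smallest adjusted p being 0.00108 with probe sets averaged.

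Signs turned only where the main fit gave a value near 0, although leaving out single arrays moved some of these values of Tnfaip3 widely. Birc3 in stimulated DCs of Set 1 had 0 after repeated quantile normalization, 0 with array weights and 0.08 with probe sets averaged, and with allergen in at-risk pups -0.15 with probe sets averaged. Bcl3 had 0.01 with array weights in at-risk pups with allergen, and 0.04 for the difference between sets. Nfkbia had 0 for the difference by allergen with probe sets averaged. With arrays left out, the allergen changes in at-risk pups ranged from -0.08 to 0.08 for Bcl3, 0 to 0.08 for Birc3 and -0.07 to 0.05 for Nfkb2. The difference between sets ranged from -0.17 to 0.06 for Bcl3 and -0.01 to 0.11 for Nfkbie. The difference by allergen ranged from -0.24 to 0.48 for Tnfaip3, and its sign turned in 9 of 15 fits. In naïve pups Relb ranged from -0.21 to 0.09 and Tnfaip3 from -0.55 to 0.17. In stimulated DCs of Set 1 the ranges were -0.13 to 0.03 for Bcl3, -0.05 to 0.03 for Birc3, -0.12 to 0.1 for Rel and -0.11 to 0.02 for Tnfaip3, and in Set 2 -0.05 to 0.08 for Relb. The causes were not tested.

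Over all probe sets the calls moved more. There were 77 in naïve pups and 12 with only the compared groups, 391 (1.73%) in the stimulated comparison and 0.535% of probe sets without a term for set, 16 in Set 1 and 71 with array weights, 1045 in Set 2 and 3136 with array weights, and 404 for the difference between sets and 2454 with array weights. The dim filter left out Tnfaip3, so that 8 members remained. The number of arrays limits the precision. No paired analysis was possible because the labels give array numbers that no groups share.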

Other observations

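Probe sets of a gene disagreed on the naïve normal array AF79. For Nfkb2, 1425902_a_at had 11.23, against 10.78 and 10.76 on AF76 and AF77, whereas 1429128_x_at had 8.42, against 8.83 and 8.81. For Nfkbia, 1448306_at had 11.9, against 12.8 and 12.92, whereas 1420089_at had 13.5, against 13.53 and 13.47. On the same array Relb and Tnfaip3 were the lowest of their group, at 10.15 and 6.8, and Bcl3 and Rel the highest, at 10.23 and 10.51.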
